A study of Rattus norvegicus with 40 samples.

Results

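The transcripts described here are the 150 whose abundance differed most from rat to rat, within a genotype, in the soleus muscle of heterozygous Tti2 knockout rats and their wild-type littermates. They were selected on measured values. In each tissue the mean of the genotype was subtracted from log2(TPM + 1), where TPM is the abundance of a transcript after scaling for its length and the size of the library, and the standard deviation (SD) of the remainder was taken over the 10 samples with 8 degrees of freedom. A transcript was eligible in a tissue when its mean TPM was at least 5 and its estimated count at least 20 in all 10 samples. Of the 31715 transcripts in the files, 7329 were eligible in soleus and 15993 in at least 1 of the 4 tissues. Each eligible transcript was given to the tissue of its largest SD among those in which it was eligible. By this, 2754 went to soleus, 4193 to fat, 2653 to liver and 6393 to hippocampus. Of those given to soleus, 227 had a mean TPM there 20 or more times that of every other tissue and were dropped, and the 150 highest SDs were taken from the remaining 2527.

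The study sequenced polyadenylated RNA from soleus muscle, liver, peritoneal fat (called perirenal in the study's methods) and hippocampus of 12 rats. Each tissue had 5 wild-type and 5 SHR-Tti2+/- animals, 40 samples in all, and the study describes the wild-type rats as littermates of the heterozygotes. In its own tests the study left out 1 outlier hippocampus sample, which it did not name. All hippocampus samples were kept here, so SDs, means and correlations that involve hippocampus may include it. The rats of both genotypes were of the inbred strain SHR/OlaIpcv, the spontaneously hypertensive rat. The heterozygotes carried, in every tissue, a short frameshift deletion in the first exon of Tti2 made with a zinc finger nuclease, and all of them belong to a single knockout line. The study asked how the loss of 1 copy of Tti2, whose product helps to assemble large kinases such as mTOR, affects metabolism and the brain. Neither treatment nor age of the sequenced rats is given in the sample labels. Soleus was taken from rats 2 to 6 of each genotype, and rats that share a number across genotypes are different animals.

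The soleus is a postural muscle of the calf, rich in slow-twitch oxidative fibres that burn fat and glucose for sustained work. A piece of muscle also holds blood vessels, nerve, connective tissue, immune cells and fat cells lying between and around the fibres, so its RNA is a mixture. In such bulk samples, fewer cells of a type and less RNA per cell cannot be told apart. The files identify transcripts by Ensembl number and do not pair them with genes, and none of the numbers matched the tables at hand. The members are therefore named by transcript, no role or sequence is given for them, and neither the soleus label nor the genotype could be checked, against muscle markers or the level of Tti2. Levels of the same transcripts in the other 3 tissues were used instead to describe where each is most abundant.

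The estimated counts of a soleus sample summed to between 23384741 and 27426073. A sum of TPM over the 252 transcripts at least 20 times higher in soleus than in any other tissue was 251680 in Tti2+/- rat 6 and between 285992 and 328899 in the other 9 samples. In wild-type rat 5 and Tti2+/- rat 3, transcripts over 5000 bases were low relative to those under 1000 bases, with a median difference of -0.05 and -0.09 on the genotype-centred log2 scale, against -0.01 to 0.04 in the other 8 samples. The part of these features in the results was not tested.

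The SD of the members in soleus ran from 0.50 to 1.37 log2 units with a median of 0.68, where all eligible transcripts had a median of 0.12. The last members had SDs of 0.507 and 0.505, and the next transcripts down the list, which were left out, had 0.504 and 0.503, so the lower limit cuts through a continuous range. On the scale of TPM, the highest of the 10 samples exceeded the lowest by 2.67-fold to 47.6-fold, with a median of 5.27-fold. The members were of ordinary abundance and length. Their mean TPM in soleus had a median of 11.3 and a range of 5.03 to 835, beside a median of 14.9 for the eligible transcripts, and their median length was 1583 bases beside 1872. Counting error was small against these spreads. The SD of a member was at least 2.67 times, and at the median 11.9 times, the SD that random sampling of its reads alone would give, and the mean estimated count of a member was 44.4 or more. This measure takes no account of the uncertainty in dividing reads between similar transcripts.

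The members were not 150 separate signals. In 4 sets, 11 members in all, the transcripts of a set held identical values in all 40 samples, as happens when the quantification cannot separate transcripts of the same sequence, and counting each set once left 143 distinct profiles. An average-linkage tree on the correlation of the genotype-centred values over the 10 soleus samples, divided at a mean correlation of 0.5, placed 105 members in 6 blocks of 8 or more. The blocks are numbered 1 to 6 by size and held 29, 24, 20, 12, 11 and 9 members. The other 45 members fell into 14 groups of at most 7, of which 2 were single transcripts. Since the blocks were drawn from the values that chose the members, their correlations and patterns over rats are a description and carry no test. The number of members in the largest block depended on single samples. When the members were chosen anew without wild-type rat 2 it was 51, without wild-type rat 4 it was 49, and without wild-type rat 6, Tti2+/- rat 3 or Tti2+/- rat 6 it was 45.

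**Figure D1:**
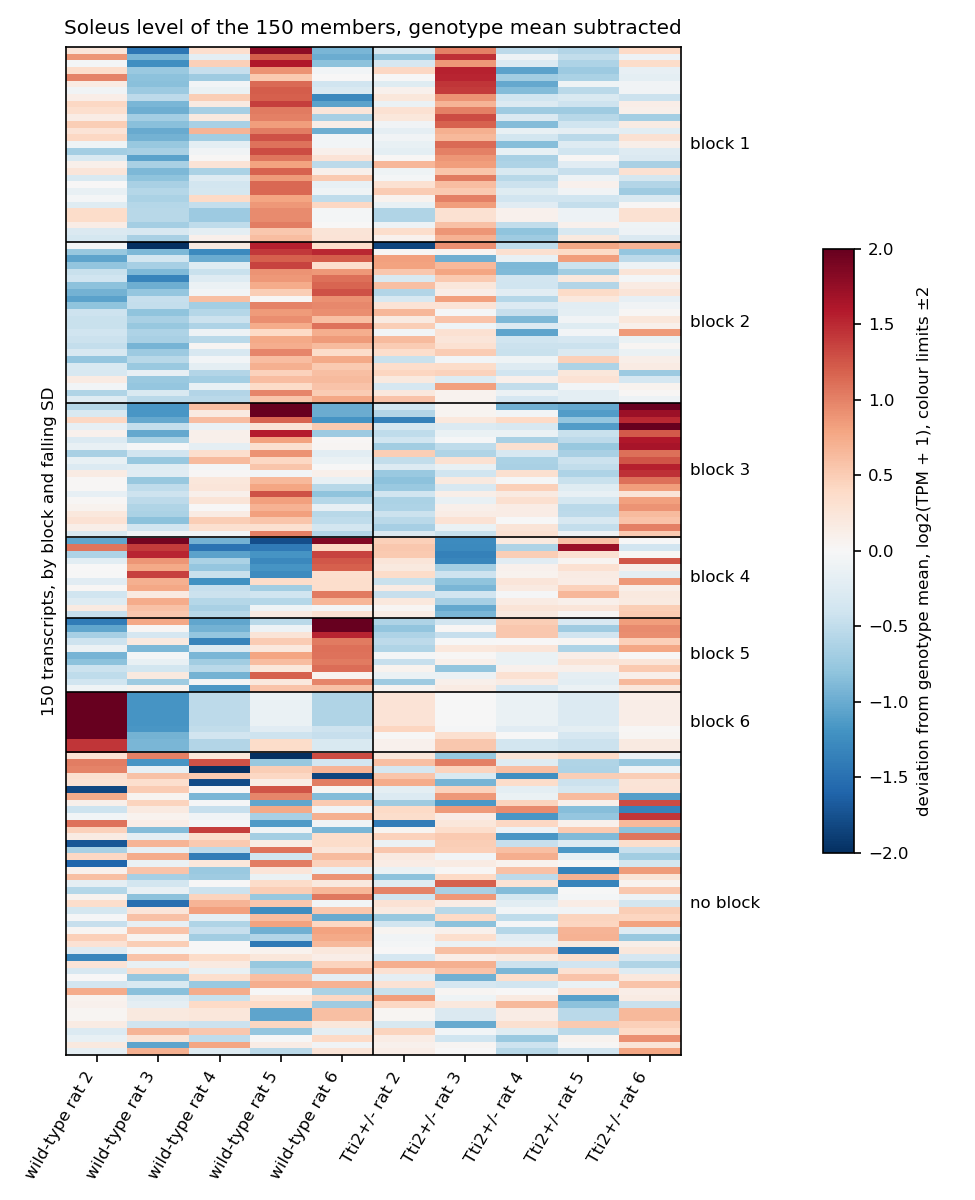
Deviation of each of the 150 members from its genotype mean, on the log2(TPM + 1) scale, in the 5 wild-type and 5 Tti2+/- soleus samples, with 1 line per transcript ordered by block and by falling SD; red is above the genotype mean and blue below, and values beyond 2 in either direction take the end colours. Blocks 1 to 6 each show 1 to 3 rats standing above the rest of their genotype, wild-type rat 2 alone in block 6, while the 45 members outside the blocks form no common pattern.

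The rat with the largest absolute deviation from its genotype mean, here the driving rat of a transcript, was wild-type rat 5 for 35 members, wild-type rat 6 for 24, Tti2+/- rat 6 for 21 and Tti2+/- rat 3 for 20. Wild-type rats 2, 3 and 4 drove 15, 13 and 9, and Tti2+/- rats 5, 4 and 2 drove 7, 4 and 2. The same rats led among all eligible transcripts, of which wild-type rat 5 drove 19.9%, Tti2+/- rat 6 drove 17.2%, wild-type rat 6 drove 11.7% and Tti2+/- rat 3 drove 11.1%. Wild-type rat 2 had a larger place among the members, at 10%, than among the eligible transcripts, at 5.44%, and 9 of its 15 members were block 6. The driving rat lay above its genotype mean for 96 members, 64.0%, and for 50.5% of the eligible transcripts. The limit of 20 estimated counts in every sample leaves out transcripts in which a rat falls very low. Its part in these shares was not tested. The wild-type samples held the larger sum of squares for 105 members, 70.0%, and for 54.8% of the eligible transcripts. Among the 2527 transcripts from which the members were taken, the driving rat lay above its genotype mean for 56.2%. The wild-type samples held the larger sum of squares for 61.1% of them.

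A single rat held at least 50% of the sum of squares of 27 members, 18.0%. The share was 13.2% of the eligible transcripts and 14.2% of the 2527 from which the members were taken. When the members were chosen anew without wild-type rat 5, Tti2+/- rat 3 or Tti2+/- rat 6, the count of such members was 42, 43 and 41. For most members, as for most eligible transcripts, no single rat held 50% of the sum of squares. After removal of the driving rat, the SD of 73 members stayed at or above that of the lowest member, and that of 77 fell under it.

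Across members, the genotype-centred values had a median pairwise correlation of 0.15 and a median absolute correlation of 0.32, over 10 samples that are shared by every pair. All eligible transcripts had 0.08 and 0.29, and the 2527 from which the members were taken had 0.14 and 0.33. A correlation of 0.8 or more joined 4.46% of the pairs of members and 1.43% of the pairs of eligible transcripts, and a correlation of -0.8 or less joined 1.06% and 0.557%. Among the 2527 the shares were 2.97% at 0.8 or more and 0.649% at -0.8 or less. The first 4 principal components held 34.7%, 20.1%, 12.6% and 11.7% of the variance of the members. For all eligible transcripts these were 33.3%, 19.2%, 15.1% and 8.76%. Component 1 of the members set wild-type rat 5, with a score of 0.64, and Tti2+/- rat 3, with 0.38, against wild-type rat 3, with -0.54. Component 1 of all eligible transcripts had the same rats at its ends, with scores of 0.65, 0.28 and -0.51. The members are among the eligible transcripts and weigh more there by their large SDs, so this likeness is partly built in. Component 2 of the members set wild-type rat 2, with 0.63, against wild-type rat 6, with -0.60, and component 3 was carried by Tti2+/- rat 6, with 0.78.

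Block 1, the largest, was high in wild-type rat 5 and Tti2+/- rat 3. The mean deviation of its 29 members was 1.05 log2 units in wild-type rat 5 and between -0.78, in rat 3, and 0.12, in rat 2, in the other wild-type rats. Among Tti2+/- rats it was 0.93 in rat 3 and between -0.48 and -0.03 in the rest. Wild-type rat 5 was the highest wild-type sample for 28 members, Tti2+/- rat 3 was the highest Tti2+/- sample for all 29, and wild-type rat 3 was the lowest wild-type sample for 23. These are the 2 rats in which long transcripts were low, and the median length of the block was 2408 bases. For 23 of the 29 the tissue with the highest mean TPM was fat, where the level was at the median 6.69 times that in soleus.

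The member of block 1 with the largest SD, ENSRNOT00000083935.1 (2303 bases), stood at 9.73, 2.34, 10.5, 30.3 and 3.81 TPM in wild-type rats 2 to 6 and at 2.66, 8.09, 2.14, 1.99 and 4.91 TPM in Tti2+/- rats 2 to 6. The next, ENSRNOT00000093658.1 (653 bases), stood at 10.8, 2.38, 4.55, 13.8 and 2.22 TPM in wild-type rats and at 1.71, 11.6, 3.27, 2.26 and 3.28 TPM in Tti2+/- rats, in the same order. Both were highest in wild-type rat 5 and, among heterozygotes, in rat 3, and the genotypes overlapped for both. Their mean TPM in fat, 24.4 and 31.2, was above that in any soleus sample except wild-type rat 5 for ENSRNOT00000083935.1. The highest mean of ENSRNOT00000083935.1 was in hippocampus, at 25.2 TPM, but this rested on wild-type rat 2, at 63.2 TPM there. The other hippocampus samples lay between 18.0 and 22.5 TPM, under the mean in fat. The most abundant members of the block in soleus were ENSRNOT00000004956.4 and ENSRNOT00000005311.6, with mean TPM of 188 and 133, which were chosen for naming after their values were seen.

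Block 2 shared the high wild-type rat 5 with block 1, but wild-type rat 6 stood as high. The mean deviation of its 24 members was 0.80 in both of these rats and between -0.74 and -0.36 in wild-type rats 2, 3 and 4, while the Tti2+/- rats lay closer together, between -0.40 and 0.28. Wild-type rat 6 was the highest wild-type sample for 15 members and rat 5 for 9. The highest mean TPM was in fat for 16 of the 24, and the median ratio of fat to soleus was 4.46.

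In this block ENSRNOT00000071574.2 (1483 bases) had the largest SD, 1.24, and its driving rat lay below the mean. It stood at 13.7, 2.57, 16.1, 43.1 and 18.1 TPM in wild-type rats 2 to 6 and at 4.56, 36.4, 13.0, 33 and 30.7 TPM in Tti2+/- rats 2 to 6. Low values thus occurred in wild-type rat 3 and Tti2+/- rat 2, and the remaining 8 samples lay between 13.0 and 43.1 TPM in both genotypes. The mean TPM of this transcript was highest in liver, at 61.5, beside 40.9 in fat and 21.1 in soleus. For ENSRNOT00000081415.1 (1817 bases) the values were 5.01, 4.44, 3.22, 26 and 28 TPM in wild-type rats and 9.61, 9.79, 12.0, 12.6 and 5.06 TPM in Tti2+/- rats. Here wild-type rats 5 and 6 stood above all others, and all Tti2+/- rats lay between them and the rest of the wild-type rats.

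Block 3 was led by Tti2+/- rat 6, which was the highest heterozygote for all 20 members, with a mean deviation of 1.2 against -0.55 to -0.04 in the other heterozygotes. Wild-type rat 5 was the highest wild-type sample for 17, at a mean of 0.86. A single rat held at least 50% of the sum of squares for 6 of the 20. The block was mixed in its tissue of highest level, which was fat for 7 members, hippocampus for 6, soleus for 5 and liver for 2. Tti2+/- rat 6 was also the sample with the lowest sum over transcripts most abundant in soleus, given above.

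This block held the transcript with the largest SD of all, 1.37. ENSRNOT00000048453.4 (624 bases) stood at 4.09, 2.35, 10.4, 32.0 and 2.79 TPM in wild-type rats 2 to 6 and at 7.32, 10.1, 4.52, 4.29 and 52.7 TPM in Tti2+/- rats 2 to 6. Only wild-type rat 5 and Tti2+/- rat 6 passed 10.4 TPM, and the other samples ran from 2.35 to 10.4 TPM. Tti2+/- rat 6 held 35.7% of the sum of squares, and without it the SD was 1.09. The mean of this transcript in hippocampus was 49.0 TPM. ENSRNOT00000044969.5 (4317 bases) stood at 2.90, 1.16, 4.48, 22.4 and 1.43 TPM in wild-type rats and at 3.52, 6.05, 5.55, 2.11 and 21.2 TPM in Tti2+/- rats. The same rats stood out by more than 3-fold over all others, although this transcript was nearly confined to soleus, with mean TPM of 0.33 in fat, 0.01 in liver and 0.04 in hippocampus.

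**Figure D2:**
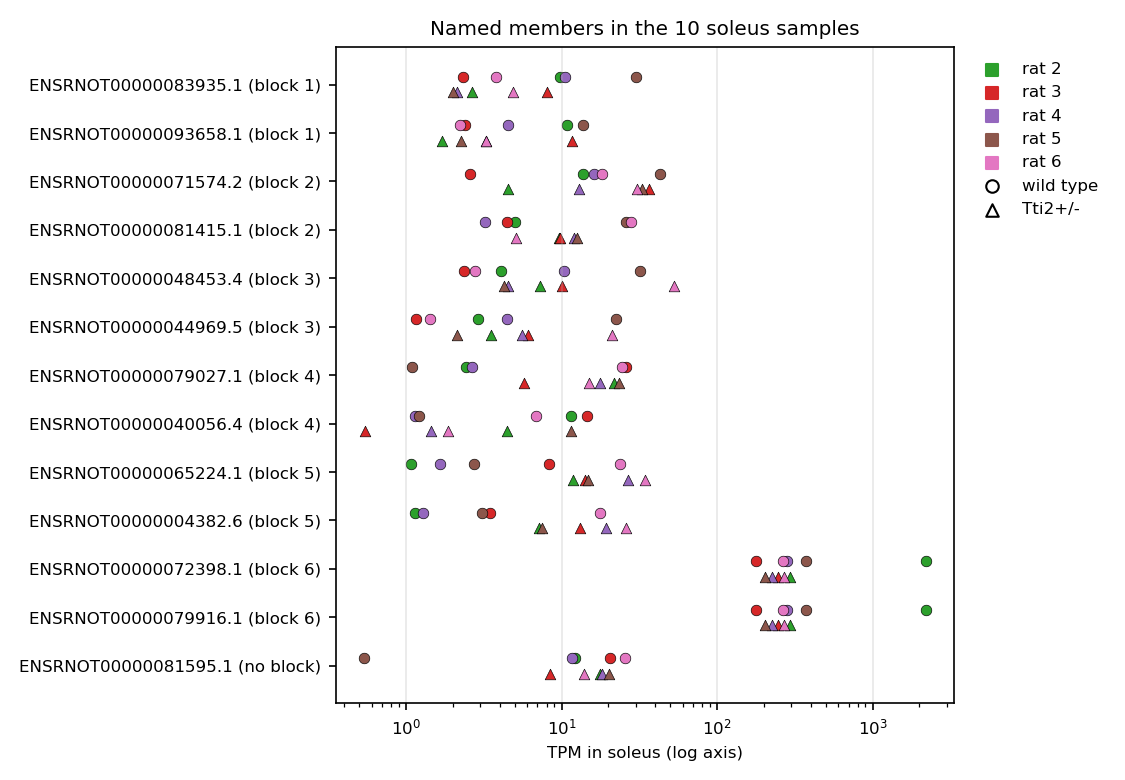
TPM on a log axis of the 13 named members in each soleus sample, with circles for wild-type and triangles for Tti2+/- rats and a colour per rat number (the same number in the 2 genotypes is 2 different animals). In each of the 13 the 2 genotypes overlap, and the outlying rats change from block to block, as in ENSRNOT00000048453.4 at 52.7 TPM in Tti2+/- rat 6 and ENSRNOT00000081595.1 at 0.54 TPM in wild-type rat 5.

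Block 4 ran the other way from block 1 in several rats. The mean deviation of its 12 members was 0.95 in wild-type rat 3 and 0.76 in wild-type rat 6, and -0.77 in both wild-type rats 4 and 5. Tti2+/- rat 3 was at -0.92 and the lowest heterozygote for 11 members, with the other heterozygotes between 0.09 and 0.40. Soleus was the tissue of highest mean level for 6 of the 12, fat for 4 and hippocampus for 2.

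ENSRNOT00000079027.1 (1327 bases) stood at 2.45, 25.8, 2.67, 1.09 and 24.5 TPM in wild-type rats 2 to 6 and at 21.6, 5.77, 17.7, 23.5 and 15.1 TPM in Tti2+/- rats 2 to 6. Its wild-type rats formed a high pair, rats 3 and 6, and a low set of 3, with no value between 2.67 and 24.5 TPM, and 4 of the 5 heterozygotes lay between 15.1 and 23.5 TPM. ENSRNOT00000040056.4 (3169 bases) stood at 11.4, 14.7, 1.13, 1.22 and 6.86 TPM in wild-type rats and at 4.43, 0.55, 1.44, 11.4 and 1.87 TPM in Tti2+/- rats. It was high in wild-type rats 2 and 3 and Tti2+/- rat 5, and its levels within a genotype differed by 10-fold or more.

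Block 5 was high in wild-type rat 6. The mean deviation of its 11 members was 1.16 there and 0.36 in wild-type rat 5, against -0.79 to -0.11 in wild-type rats 2, 3 and 4. Wild-type rat 6 was the highest wild-type sample for 10 members, and Tti2+/- rat 6, at a mean of 0.52, the highest heterozygote for 8. Fat was the tissue of highest level for 9 of the 11, at a median of 6.61 times the level in soleus.

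ENSRNOT00000065224.1 (3038 bases) stood at 1.07, 8.29, 1.66, 2.75 and 23.9 TPM in wild-type rats 2 to 6 and at 11.8, 14.1, 26.9, 14.8 and 34.4 TPM in Tti2+/- rats 2 to 6. Wild-type rat 6 alone reached the range of the heterozygotes, which without it would lie wholly above the wild-type rats. ENSRNOT00000004382.6 (3547 bases) had a like pattern, at 1.15, 3.48, 1.29, 3.10 and 17.6 TPM in wild-type rats and 7.13, 13.1, 19.3, 7.52 and 26 TPM in Tti2+/- rats. The first was more abundant in soleus than in any other tissue and the second in fat, where its mean was 81.7 TPM.

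Block 6 was the tightest, with a median correlation of 0.98, or 0.93 with identical transcripts counted once, against 0.70 to 0.77 in blocks 1 to 5, and it rested on 1 rat. Wild-type rat 2 was the highest wild-type sample for all 9 members, with a mean deviation of 2.17, while the heterozygotes lay between -0.30 and 0.21. A single rat held at least 50% of the sum of squares for 7 of the 9. The block held only 4 distinct profiles, since 5 transcripts of 411 bases were identical in every sample and 2 of 666 bases were identical as well. Soleus was the tissue of highest mean level for all 9, but for the identical 5 this rested on wild-type rat 2. In Tti2+/- rats the mean of these 5 was 247 TPM in soleus and 323 TPM in hippocampus. ENSRNOT00000072398.1 and ENSRNOT00000079916.1, both among the identical 5, stood at 2196, 179, 283, 371 and 266 TPM in wild-type rats 2 to 6 and at 296, 245, 224, 204 and 268 TPM in Tti2+/- rats 2 to 6. The other 9 samples thus lay within 179 to 371 TPM, close to the means of 240 to 293 TPM in the other tissues, and wild-type rat 2 was more than 5-fold above them.

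Outside the blocks, the transcript with the largest SD was ENSRNOT00000081595.1 (4045 bases), at 12.2, 20.6, 11.6, 0.54 and 25.5 TPM in wild-type rats 2 to 6 and 17.8, 8.47, 18.1, 20.1 and 13.9 TPM in Tti2+/- rats 2 to 6. Wild-type rat 5 alone was low, 47.6-fold under the highest sample, which was the widest ratio among the members. This transcript belonged to a group of 6 whose mean deviation in wild-type rat 5 was -1.44. A group of 7 was low in Tti2+/- rat 5, at -1.14, and its other samples lay between -0.26 and 0.55.

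Many members were most abundant in fat. Of the 150, 71 had their highest mean TPM in fat, 49 in soleus, 22 in hippocampus and 8 in liver, that is 47.3%, 32.7%, 14.7% and 5.33%. Among all eligible transcripts the shares were 32.9%, 18.2%, 43.1% and 5.76%. Among the 2527 from which the members were taken they were 39.4%, 16.2%, 37.3% and 7.08%. The 49 highest in soleus include all 9 members of block 6. Of the 71 members highest in fat, wild-type rat 5 was the highest wild-type sample for 39 and wild-type rat 6 for 23, together 87.3%, and Tti2+/- rat 3 was the highest heterozygote for 31. For the 79 members highest elsewhere, the same wild-type rats were highest for 52, or 65.8%. The eligible transcripts that were not members had the same order, at 71.5% of 2340 highest in fat and 54.0% of 4839 highest elsewhere.

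To see fat transcripts apart from the members, the 153 transcripts at least 20 times higher in fat than in every other tissue were summed in each soleus sample. The sum was 1291, 1219, 1174, 2307 and 2088 TPM in wild-type rats 2 to 6 and 1300, 1610, 1131, 1200 and 1410 TPM in Tti2+/- rats 2 to 6. Without the 8 members among them it was 959, 909, 857, 1575 and 1428 TPM in wild-type rats and 1037, 1154, 858, 872 and 981 TPM in Tti2+/- rats. Wild-type rats 5 and 6 stood above the other 8 samples in both sums, followed by Tti2+/- rat 3. Of the 153 transcripts, 101 were above 0 in all 10 soleus samples and 3 were at 0 in all. Of the 93 in the former set that were not members, wild-type rat 5 or 6 was the highest wild-type sample for 84, and Tti2+/- rat 3 was the highest heterozygote for 40. Among wild-type rats, 1 or both of rats 5 and 6 led blocks 1, 2, 3 and 5. The same rats were also the highest for transcripts most abundant in fat. Block 3, led by wild-type rat 5, had its highest level in fat for only 7 of 20 members, with a median ratio of fat to soleus of 0.67. Among heterozygotes the highest for these transcripts was rat 3, which led block 1, and not rat 6, which led blocks 3 and 5. The part of fat RNA in the blocks was not tested. Blocks 4 and 6 held none of the 153. The corresponding sum for transcripts most abundant in hippocampus was 796 TPM in wild-type rat 5 and 528 to 674 TPM in the rest, and that for liver was 179 TPM in wild-type rat 5 and 97.5 to 161 TPM in the rest. Wild-type rat 5 was thus the highest sample for the fat, hippocampus and liver transcripts alike.

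**Figure D3:**
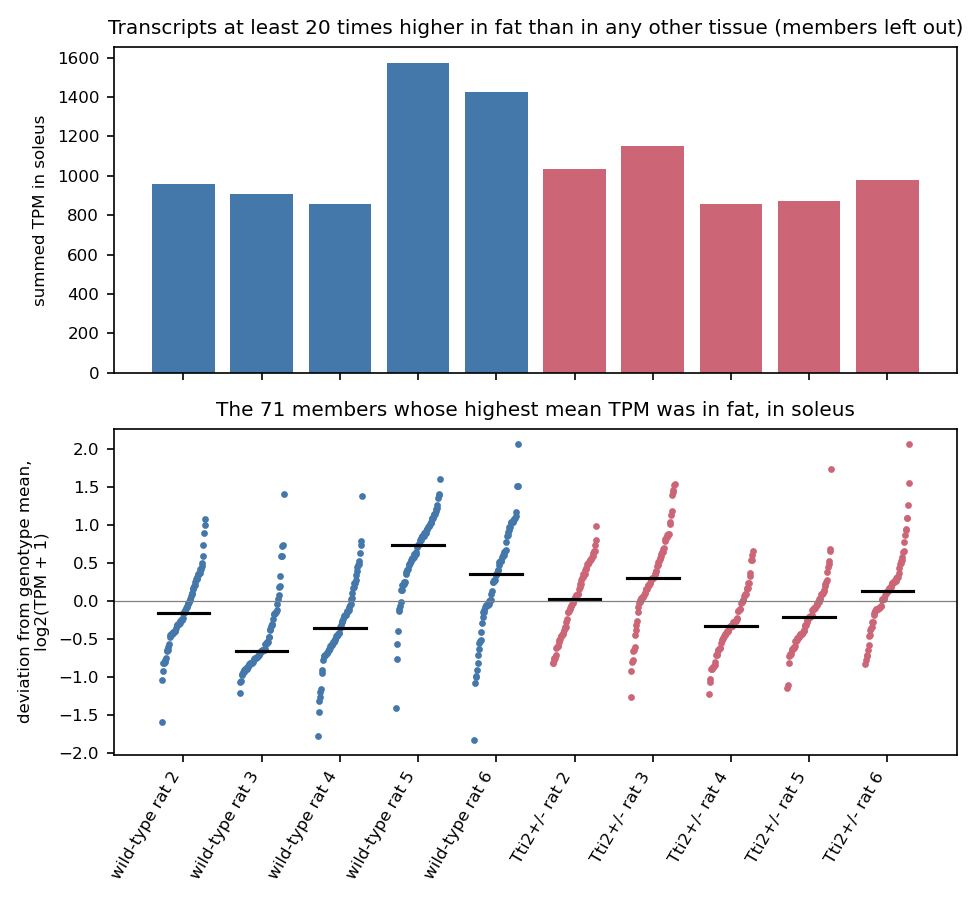
Upper panel, bars of the summed TPM in each soleus sample of the 145 transcripts at least 20 times higher in fat than in any other tissue, members left out, with blue for wild-type and red for Tti2+/- rats. Lower panel, the deviation of each of the 71 members highest in fat from its genotype mean, with a black line at the median; wild-type rat 5 has the highest sum, 1575 TPM, and the highest median, 0.74 log2 units.

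Among the tissues in which a member was eligible, the rule made soleus that of the largest SD, and the margin varied. Tissues in which a member was not eligible were left out, and a member could vary more there. ENSRNOT00000071574.2, for example, was not eligible in hippocampus. It ran from 0.55 to 49.1 TPM there, beside 2.57 to 43.1 TPM in soleus. Of the 150, 122 were eligible in another tissue, 37 in all 4 and 28 in soleus alone. The SD in soleus exceeded that of the next eligible tissue by 2.06-fold at the median. The margin was 2-fold or more for 66 members and less than 1.2-fold for 14.

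**Figure D4:**
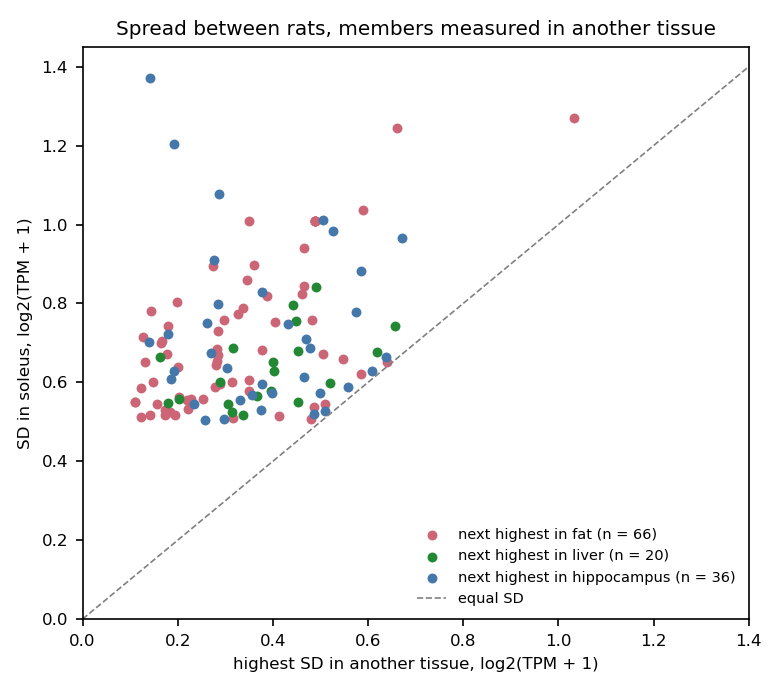
SD in soleus against the highest SD in another tissue in which the member was eligible, both of genotype-centred log2(TPM + 1). The 122 members eligible in another tissue are shown, coloured by that tissue (66 fat, 20 liver, 36 hippocampus). The rule places all points above the dashed line of equal SD; 66 lie at 2 times or more.

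Whether a rat that was high in soleus was also high in another tissue is a readout whose direction the rule did not use. The size of the SDs in those tissues was used. Members were also chosen for large SDs in soleus, at the median 11.9 times counting error beside 2.37 times for all eligible transcripts. Counting error weakens their correlations less, so the comparison with all transcripts below is not an even one. The readout was examined over the rats sampled in both, 8 for each tissue, with the genotype means of those rats subtracted. For 106 members eligible in soleus and fat the median correlation was 0.21, and 65 were above 0, or 61.3%. All 6600 transcripts eligible in both had a median of 0.01, with 51.2% above 0. Without wild-type rat 5, the median over the members was 0.09. For the 58 members measured in liver the median was -0.003, beside 0.06 for all 5454, and for the 73 in hippocampus it was -0.05, beside 0.01 for all 6485. A correlation of 0.7 or more with fat was found for 7 members, 6.60% beside 3.71% of all, and for 3 members each with liver and hippocampus, 5.17% beside 5.52% and 4.11% beside 3.67%. A correlation of -0.7 or less was found for 1 member with fat, 0.943% beside 3.35% of all, for 2 with liver, 3.45% beside 3.01%, and for 1 with hippocampus, 1.37% beside 3.28%. These correlations share rats and libraries and rest on 8 points each.

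The 3 members with a correlation of 0.7 or more with liver were ENSRNOT00000086864.1, ENSRNOT00000062054.5 and ENSRNOT00000004956.4, and the 3 with hippocampus were ENSRNOT00000077398.1, ENSRNOT00000089988.1 and ENSRNOT00000085026.1, all named for this after their values were seen. Those at -0.7 or less, named likewise, were ENSRNOT00000085092.1, at -0.73 with fat and -0.78 with liver, ENSRNOT00000075948.1, at -0.74 with liver, and ENSRNOT00000093637.1, at -0.82 with hippocampus. ENSRNOT00000085026.1 also had a correlation of 0.71 with fat. The blocks were drawn from soleus. For block 1 the median correlation between members, each distinct profile counted once, was 0.76 in soleus and 0.18 in fat, where any pair of eligible transcripts had 0.10. Over all members it was 0.05 in fat, 0.06 in liver and 0.01 in hippocampus, beside 0.10, 0.05 and 0.08 for all transcripts eligible there.

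ENSRNOT00000040056.4 of block 4 had the third largest SD in soleus and varied widely in fat as well. It was not eligible in liver, where it ran from 0.15 to 21.7 TPM. In fat it stood at 8.91, 11.7, 12.9, 2.28 and 6.47 TPM in wild-type rats 1 to 5 and at 6.46, 29.7, 8.19, 15 and 53.5 TPM in Tti2+/- rats 1 to 5. In the rats sampled in both, its correlation between soleus and fat was 0.92. Higher correlations with fat were those of ENSRNOT00000000523.4, at 0.97, and ENSRNOT00000057136.3, at 0.94, named for this after their values were seen. Tti2+/- rat 5 was the highest heterozygote in both tissues and rat 3 the lowest of the 4 shared heterozygotes, while wild-type rats 2 and 3 were above rats 4 and 5 in both.

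**Figure D5:**
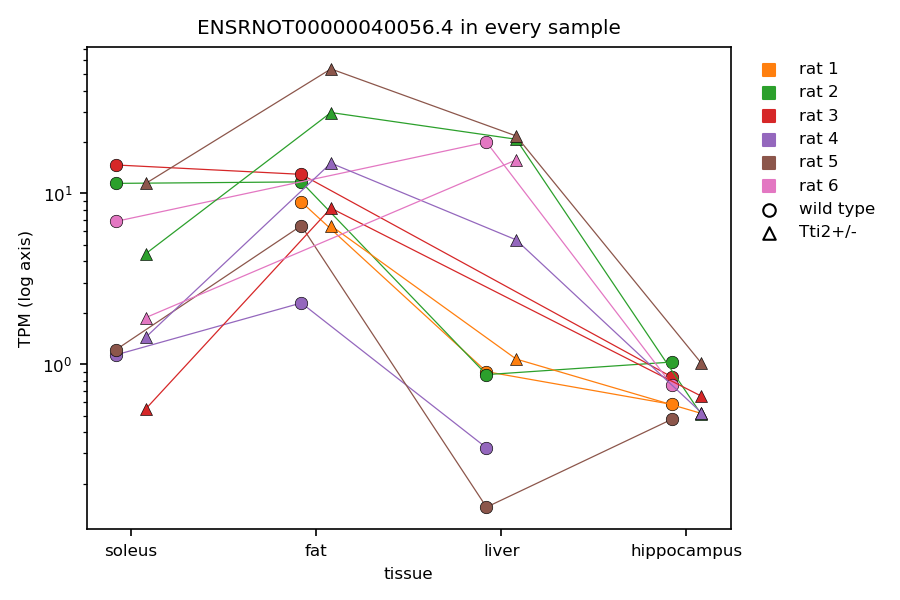
TPM on a log axis of ENSRNOT00000040056.4 in every sample of the 4 tissues, with circles for wild-type and triangles for Tti2+/- rats, a colour per rat number and lines joining the samples of 1 rat. Tti2+/- rat 5 is the highest heterozygote in soleus, at 11.4 TPM, and in fat, at 53.5 TPM, and all hippocampus samples are near or below 1 TPM.

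The rule subtracted the genotype means, so the size of the difference between genotypes did not choose the members. The spread within genotypes did choose them, and as that spread is the error of a genotype test, few calls, high p-values and overlapping genotypes are built into the choice. The counts below are given for completeness, and nothing about the members is read from them. Genotype was tested over all soleus transcripts by edgeR's quasi-likelihood test on the estimated counts, with a call at a Benjamini-Hochberg adjusted p under 0.1 together with a 1.5-fold or larger difference. Of 18120 transcripts tested, 1 was called, 0.00552%, and 0 of the 150 members were. DESeq2 at the same limits called 40 transcripts, of which 1 was a member. An unadjusted p under 0.05 was reached by 9 members, 6%, of which 4 were higher and 5 lower in Tti2+/- rats, and by 6.84% of all transcripts. No member had all rats of 1 genotype above all rats of the other, which held for 1.30% of all transcripts. The members' count at an unadjusted p under 0.05 moved with single samples. It was 37 without wild-type rat 3, 33 without Tti2+/- rat 3 and 22 without wild-type rat 6. Without wild-type rat 4 or 5 it was 17, without Tti2+/- rat 2 it was 14 and without Tti2+/- rat 4 it was 5. Over all transcripts the counts in that order were 1536, 1721, 1248, 1089, 1183, 1142 and 898. Between 17771 and 17901 transcripts were tested in these fits, and with all samples the count was 1239 of 18120.

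The members' estimated differences were large and imprecise. Both are built into the choice of members, since a larger error spreads the estimates further in either direction. The median absolute log2 fold change was 0.47 beside 0.13 for all transcripts tested, and 57 members, 38.0%, differed by 1.5-fold or more beside 9.74% of all. Their median standard error was 0.39 beside 0.16. By block the median log2 fold change, Tti2+/- relative to wild type, was -0.60 in block 1, where all 29 members were lower in heterozygotes, -0.56 in block 2, 0.30 in block 3, 0.58 in block 4, 0.04 in block 5 and -1.32 in block 6. None of these members was called by edgeR and 1, in block 4, was called by DESeq2. A block whose rats move together is not a set of independent transcripts. The estimate for ENSRNOT00000072398.1 in block 6 was -1.32 with a standard error of 0.62 (adjusted p = 0.72 by edgeR), and rested on the 2196 TPM of wild-type rat 2. That for ENSRNOT00000004382.6 in block 5 was 1.53 with a standard error of 0.71 (adjusted p = 0.72 by edgeR), with only wild-type rat 6 inside the range of the heterozygotes.

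The smallest p among the members belonged to ENSRNOT00000046091.5 of block 4, named for its p after the values were seen. It stood at 32.0, 42.4, 17.6, 26.5 and 27.3 TPM in wild-type rats 2 to 6 and at 62.5, 29.5, 73.5, 72.1 and 86.6 TPM in Tti2+/- rats 2 to 6. The heterozygotes were higher except for rat 3, which lay within the range of the wild-type rats. The log2 fold change was 1.19 with a standard error of 0.30, and the adjusted p was 0.585 by edgeR and 0.0227 by DESeq2, which called no other member.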

How the data were processed

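RNA of 40 rat tissue samples was sequenced, 10 of them soleus. Per the labels, strand-specific libraries were made from polyadenylated RNA, and the authors quantified transcripts with kallisto (0.46.0 in the submitters' processing notes) against Ensembl cDNA of the rn6 build, with sequence-based bias correction. The deposited files give, for each transcript, an estimated count, which need not be whole because shared reads are divided between transcripts, and a TPM value, normalized by kallisto for effective length and library size. Reads of near-identical transcripts may be misdivided, and TPM of one transcript falls when others rise.

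Groups were taken from the sample labels. SDs, correlations, components and the tree were computed from log2(TPM + 1), pseudocount 1, in Python 3.11.15 with numpy 2.4.6, pandas 2.3.3 and scipy 1.17.1. The genotype test used estimated counts rounded to whole numbers, TMM normalization and edgeR 4.0.16 in R 4.3.3 (quasi-likelihood F-test with a genotype term alone), over transcripts with at least 5 counts in at least 47% of the 10 soleus samples. DESeq2 1.42.0 and limma 3.58.1 were alternatives. The scripts were tested on simulated data.

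The members and lists were chosen with earlier results of these data known. Named were the 2 members of largest SD in each block and, over all members, the 2 of largest SD whose driving rat lay above its genotype mean and the 2 whose driving rat lay below. Lists of cell type markers were not used, because no transcript could be paired with a gene. Other settings tried were pseudocounts of 0.1 and 5, TMM-normalized CPM, other filters, other divisions of the tree, Spearman correlation, each sample left out, and the rat number as a block. Leaving out wild-type rats 5 and 6 together, counting identical members once and fat lists at 10-fold and 100-fold were added after the data were seen. No pair of soleus samples of a genotype held the same library, the lowest chi-square per degree of freedom between them being 10.8. The labels do not say more of the rats than a number, so p-values measure the spread between the samples, and counting error covers counting alone.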

Additional observations from a re-analysis of the deposited data

Results flagged for a closer look

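In 52 groups of 5 soleus samples, a sample was marked when its gap to the nearest other, divided by the range of its group, was above 0.71, which chance gives in about 1 of 20 groups, or 2.6 of 52. This held in 6 groups. The median difference between long and short transcripts in wild-type rat 5 had a ratio of 0.713. The mean of block 3 in Tti2+/- rat 6 had 0.7103, and that of block 4 in Tti2+/- rat 3, which was low, had 0.762. ENSRNOT00000072398.1 and ENSRNOT00000079916.1, which hold identical values, had 0.7103 in wild-type rat 2. ENSRNOT00000081595.1 had 0.738 in wild-type rat 5, where it was low. As the members were chosen for large spreads, such gaps are a description of them.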

How the results depend on the processing

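The choice of members depended most on the filters for low values. Of the 150 members, 84 were chosen again with a mean TPM of at least 10 and 86 with no filter on estimated counts, against 114 to 141 under the other settings and 123 to 142 with 1 sample left out. With no filter on estimated counts, component 1 held 21.2% of the variance and 44 members had a rat with at least 50% of the sum of squares. The latter count was 55 without wild-type rats 5 and 6. The largest block held 61 members at a pseudocount of 5 and 51 at a mean TPM of at least 10. With 1 sample left out, component 1 held 28.2% to 40.5%, the largest block 29 to 51 members, and 19 to 43 members had such a rat. The same-rat correlation then ranged from 0.09 to 0.26 for fat, -0.12 to 0.14 for liver and -0.10 to 0.08 for hippocampus. By genotype, the calls over all transcripts numbered 40 by DESeq2 (22 higher in Tti2+/- rats), 5 with at least 10 counts in every sample and 1 to 5 with 1 sample left out. Members called numbered 1 by DESeq2 and 0 with any 1 sample left out. Members at an unadjusted p under 0.05 numbered 19 by DESeq2, 17 by limma and 14 with at least 10 counts in every sample, against 9. Over all transcripts these were 1306, 1329 and 1182, against 1239, the third of 14236 tested and the others of 18120. The settings not named here moved none of these counts by more than 1.5 times.

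Rat numbers mark different animals in the 2 genotypes, and the deviations of same-numbered rats had correlations from -0.23 to 0.05. With the rat number as a block, the calls over all transcripts fell from 1 to 0 and those over the members stayed at 0. An unadjusted p under 0.05 was then reached by 11 members, where the fit without the block gave 9. Over all transcripts that count was 965, against 1239.

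With 5 rats a genotype, an SD or a correlation rests on few samples, and the jackknife standard error of the share of component 1 was 11.5 percentage points. Transcripts at low counts, or split between near-identical copies, are measured least well.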
